A study of Mus musculus with 267 samples.

Results

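RNA polymerase II (Pol II) was mapped by chromatin immunoprecipitation sequencing (ChIP-seq) in bone marrow–derived macrophages (BMDMs) from female mice of the BALB/cJ strain (BALB), either left untreated (basal, 3 libraries) or stimulated with interleukin-4 (IL-4) at 20 ng/mL for 24 hours (2 libraries). The bone marrow cells of both groups had been differentiated in culture with macrophage colony-stimulating factor, and IL-4 was the only agent that differed between them. These 5 libraries are part of a series of 267 samples that also covers 4 other inbred strains, histone marks and transcription factors. The members were all 54022 regions of the deposited BALB table, each 1000 bp wide and centred on a site of open chromatin, out of 305626 regions in the Pol II tables of all 5 strains. Of them, 10802 were annotated as promoters and 40126 as intronic or intergenic, called distal here, and 3094 lay in other positions such as exons and transcript ends. Nothing beyond the words biological replicates tells which animals a library came from. The p-values measure the spread between these libraries, shared among regions of similar level, and this spread may be technical.

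Pol II transcribes all protein-coding genes. It accumulates at promoters, where it starts and often pauses before elongation, and it is also found at active enhancers, where it makes short RNAs. IL-4 signals through its receptor and Janus kinases to the transcription factor STAT6, which dimerizes, enters the nucleus and binds a palindromic DNA element, and macrophages exposed to IL-4 take on a program known as alternative activation, with arginine metabolism, lectins and certain chemokines among its products. Feedback inhibitors of the SOCS family limit the signal.

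The DNA of 6 named regions that hold a STAT6-type element is shown so that the element can be seen. They were taken in order of the size of their log2 fold among those that hold it outside annotated exons, so regions with larger folds that lack it, such as the Slc7a2, Ang6 and Socs1 distal regions and the Msx3, Flt1 and Slc7a2 promoters, are not shown. The element is TTC and GAA with any 4 bases between them, which reads the same on both strands, and it was searched over each 1000 bp region. The first 3 sequences lie in distal regions with higher Pol II at 24 hours, the next 2 at promoters with higher Pol II, and the last in a distal region with lower Pol II. Capitals mark the element. All are 70 bases of the plus strand of the C57BL/6J reference from RefSeq (GRCm38.p6, the assembly named mm10 in the files), not sequence of the BALB strain. They come from chr14:43967329-43967398 (intergenic, near Ang5), chr14:51200099-51200168 (intergenic, near Ang2), chr7:140051961-140052030 (intergenic, near Msx3), chr10:68723178-68723247 (Tmem26 promoter), chr5:74948704-74948773 (Gm6116 promoter) and chr17:5596675-5596744 (intron 1 of Zdhhc14).
Ang5 distal region: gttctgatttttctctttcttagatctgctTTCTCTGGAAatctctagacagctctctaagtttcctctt
Ang2 distal region: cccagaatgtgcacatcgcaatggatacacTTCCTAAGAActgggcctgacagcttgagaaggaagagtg
Msx3 distal region: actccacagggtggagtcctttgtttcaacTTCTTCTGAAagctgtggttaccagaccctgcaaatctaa
Tmem26 promoter: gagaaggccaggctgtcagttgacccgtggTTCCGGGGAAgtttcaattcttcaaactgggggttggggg
Gm6116 promoter: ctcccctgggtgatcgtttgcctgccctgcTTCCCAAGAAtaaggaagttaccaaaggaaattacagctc
Zdhhc14 distal region: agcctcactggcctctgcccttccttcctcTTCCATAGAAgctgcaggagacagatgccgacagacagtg

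The deposited value is the number of tags in a region scaled to a library total of 10000000 tags, called normalized tags here. The library totals ran from 4691644 tags (24 h, library 1) to 16860473 tags (basal, library 2), so that 8 normalized tags stood for 3.75 to 13.5 reads. Basal library 3 stood apart, with 17.6% of its tags in the regions against 27.8% to 39.2% in the others, and 24 h library 1 was the shallowest and had the highest share. Every one of the 8 macrophage marker genes had a region, and their summed Pol II was 6039, 6007 and 2310 normalized tags in the basal libraries and 4259 and 4448 at 24 hours. Marker genes of neutrophils (2 of 10 with a region), B cells (1 of 7), stromal cells (1 of 8) and erythroid cells (1 of 7) summed to at most 91.3 normalized tags in any library, and no T cell or mast cell marker had a region. The 1 dendritic cell marker with a region, Zbtb46, was at 3.28 to 4.47 normalized tags in the basal libraries, 59.7 in 24 h library 1 and 3.97 in 24 h library 2. The part of such cells in the results was not tested, and in bulk samples fewer cells and less polymerase per cell cannot be told apart.

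On the deposited scale, limma called Pol II higher at a smaller share of promoters than of distal regions after 24 hours of IL-4. After median-ratio scaling the shares were alike, with 8 of 10802 promoters and 30 of 40126 distal regions called higher. They were also alike, 5.79% and 5.93%, by a fold rule without a test that is described below. By limma on log2(normalized tags + 1), with Benjamini-Hochberg adjustment over all regions and an adjusted p below 0.05, Pol II was higher at 358 of 54022 regions (0.663%) and lower at 24 (0.0444%). Of 10802 promoters, 27 were higher (0.25%) and 5 lower (0.0463%). Of 40126 distal regions, 318 were higher (0.793%) and 19 lower (0.0474%), and the other 13 higher regions (0.42% of 3094) lay in exons, transcript ends and similar positions. At an unadjusted p below 0.05 there were 3351 higher and 763 lower regions.

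The number of calls depended on basal library 3: without it limma called 0 regions in either direction at the same adjusted p, with 2138 higher and 823 lower at an unadjusted p below 0.05. The limma log2 folds moved less, from 5.89 to 6.01 near Ang5 and 4.20 to 4.47 at the Msx3 promoter. They went from 4.45 to 4.14 at the Slc7a2 promoter and 3.63 to 3.20 at the Ccl7 promoter. The unadjusted limma p near Ang5 went from 3.69e-18 to 2.63e-05. Why the p-values rose was not tested. All 358 higher regions kept their direction without that library and 348 of them had an unadjusted p below 0.05, but the adjusted p of each was above the threshold. These regions had been chosen with the remaining libraries among those used. Their kept direction and small unadjusted p are therefore not separate evidence for the calls. The reads recovered from the table gave 225 higher and 18 lower regions with edgeR's quasi-likelihood test after TMM scaling and 258 higher and 57 lower with DESeq2.

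A fold rule without a test counted the regions whose group means (plus 1) differed by a factor of 2.5 or more, one of the means being 8 normalized tags or higher. It gave 3194 higher regions (5.91%) and 502 lower ones (0.929%), of which 625 (5.79%) and 20 (0.185%) were promoters and 2378 (5.93%) and 454 (1.13%) were distal. The median promoter went from 82.1 to 125 normalized tags and the median distal region from 12.2 to 14.5. The median log2 fold was therefore above 0, at 0.55 for promoters, 0.18 for distal regions and 0.30 for all regions. Median-ratio scaling moved the median of all regions to -0.01, of promoters to 0.21 and of distal regions to -0.11, and left 1597 higher (2.96%) and 1086 lower (2.01%) regions by the fold rule and 43 higher (0.0796%) and 4 lower (0.0074%) by limma. Folds below are on the deposited scale unless median-ratio scaling is named.

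**Figure D1:**
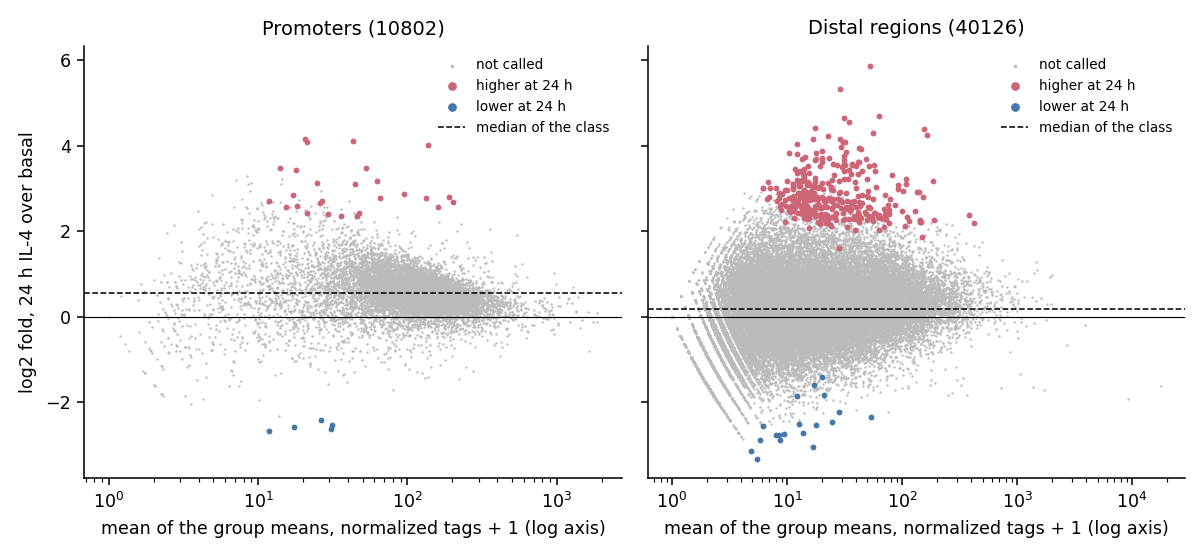
Log2 fold of Pol II (24 h IL-4 over basal, group means of normalized tags plus 1) against the mean level of each of 10802 promoters and 40126 distal regions, with the level on a log axis. Regions called higher or lower by limma are coloured, the dashed line is the median of the class (0.55 and 0.18), and the called regions are 27 and 5 at promoters and 318 and 19 at distal regions.

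Tmem26, Msx3, Flt1 and Slc7a2 had the largest rises among called promoters, with log2 folds from 4.03 to 4.15. Slc7a2 encodes a cationic amino acid transporter that carries arginine into the cell. Its promoter (chr8:40861912-40862912) held 32.6, 5.34 and 6.56 normalized tags in the basal libraries and 292 and 224 at 24 hours, a log2 fold of 4.03 (limma 4.45 ± 0.65 (SE), adjusted p = 4.68e-08, Benjamini-Hochberg; n = 3 and 2 libraries). Both 24 h libraries lay far above the basal ones, among which library 1 was the highest. The SE and p rest on a spread that limma shared among regions of similar level, not on the spread of this region alone. The SE was also 0.65 at the Msx3 promoter, with 81.0 and 79.4 normalized tags at 24 hours. It was 0.72 at the Bspry promoter, with 57.6 and 5.55. Tmem26, which encodes a transmembrane protein (chr10:68722686-68723686), had 1.92, 0.59 and 1.09 normalized tags at baseline and 46.9 and 29.4 at 24 hours, the largest log2 fold of a called promoter, 4.15 (limma 4.16 ± 0.71, adjusted p = 7.41e-06). The groups did not overlap, and the basal values were only a few reads. It is 1 of the 2 printed promoters, and its region held 2 copies of the element.

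The homeobox gene Msx3 (chr7:140048743-140049743) had 3.83, 1.78 and 5.47 normalized tags before and 81.0 and 79.4 after IL-4, a log2 fold of 4.11 (limma adjusted p = 4.56e-07). The 24 h libraries nearly coincided. Flt1, which encodes a receptor for vascular endothelial growth factor (chr5:147725882-147726882), had 1.28, 0.59 and 2.19 basal normalized tags against 53.3 and 25.4 (log2 fold 4.10, limma adjusted p = 1.21e-05). Again the groups were apart, with 24 h library 1 the higher one. At the predicted noncoding gene Gm6116 (chr5:74948209-74949209) the values were 0, 0.59 and 3.28 against 21.3 and 27.8 normalized tags (log2 fold 3.48, limma adjusted p = 3.05e-04). The basal level rested on a handful of reads.

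Pol II also rose at the promoters of Ccl7, Mgl2, Itgax and Tarm1, with log2 folds from 2.86 to 3.49. Ccl7, a monocyte-attracting chemokine (chr11:82045083-82046083), had 7.03, 12.5 and 3.28 normalized tags at baseline and 85.3 and 105.5 at 24 hours, a log2 fold of 3.49 (limma 3.63 ± 0.65, adjusted p = 2.90e-05). Mgl2, a C-type lectin of alternatively activated macrophages (chr11:70129619-70130619), went from 8.30, 6.52 and 9.85 to 66.1 and 91.3 normalized tags, a log2 fold of 3.11 (limma adjusted p = 0.00102). Both genes had every 24 h library above every basal library. Itgax, which encodes the integrin subunit CD11c (chr7:128128851-128129851), had 17.9, 35.0 and 12.03 normalized tags against 134 and 197 (log2 fold 2.88, limma adjusted p = 0.0025). Tarm1, an activating receptor of myeloid cells, had basal values of 2.37 to 3.83 and 24 h values of 23.5 and 34.9 normalized tags (log2 fold 2.86, limma adjusted p = 0.00798). The 24 h libraries of both were apart from the basal ones, with library 2 the higher.

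Among the feedback inhibitors, Cish, a SOCS-family gene (chr9:107296122-107297122), had 21.7, 4.74 and 7.66 normalized tags at baseline and 151 and 72.2 at 24 hours (log2 fold 3.19, limma adjusted p = 2.11e-04). The groups did not overlap, although the 24 h libraries differed between themselves. Socs2 went from 3.83, 2.37 and 10.9 to 38.4 and 31.7 normalized tags (log2 fold 2.43, limma adjusted p = 0.0158). Socs1, an inhibitor of Janus kinases, had 2 regions at its start. One (chr16:10785623-10786623) rose from 57.5, 48.0 and 30.6 to 262 and 287 normalized tags (log2 fold 2.57, limma adjusted p = 0.0166), while the other (chr16:10785022-10786022) had means of 138 ± 66.5 (SD, n = 3) and 575 ± 114 (SD, n = 2) and an adjusted p of 0.096 by limma. Gpc1, a cell-surface heparan sulfate proteoglycan, had basal values of 1.09 to 5.93 and 24 h values of 61.8 and 24.6 normalized tags (log2 fold 3.13, limma adjusted p = 0.00115).

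The call at Bspry rested on 1 library: its promoter had 3.19, 1.78 and 1.09 normalized tags at baseline, 57.6 in 24 h library 1 and 5.55 in 24 h library 2 (log2 fold 3.43, limma adjusted p = 0.023). H3K27ac there was 4.52 normalized tags at baseline and 4.40 at 24 hours, and the log2 fold of Pol II was 0.04 in the C57 strain and -0.01 in the NOD strain. It was called under 4 of 15 settings.

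The remaining 15 called promoters, named here after their values were seen, had log2 folds between 2.36 and 2.79. They included the transcription factors Batf3 (15.7 ± 4.92 (SD, n = 3) to 113 ± 15.2 (SD, n = 2) normalized tags) and Nfil3, the chemokine Ccl24 (13.9 ± 5.35 to 75.5 ± 4.30), the metalloelastase Mmp12 (13.9 ± 15.8 to 78.9 ± 24.2), the lysosomal proton pump subunit Atp6v0d2 (53.5 ± 29.1 to 350 ± 61.3), the vasoconstrictor peptide gene Edn1, the fatty acid receptor Ffar4 and the cytochrome Cyp1b1. The others were Matk, Socs2, Socs1, Prr15, Plekhg1, Zfp786 and 0610040F04Rik. All 27 had both 24 h libraries above every basal library, a pattern found at 945 of all promoters (8.75%). At 2 of the 27, however, 24 h library 1 was at least 5-fold above library 2. Bspry was one of them, and the other was among these 15. Tags carry no strand, so the polymerase of a gene and of a divergent neighbour cannot be told apart.

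**Figure D2:**
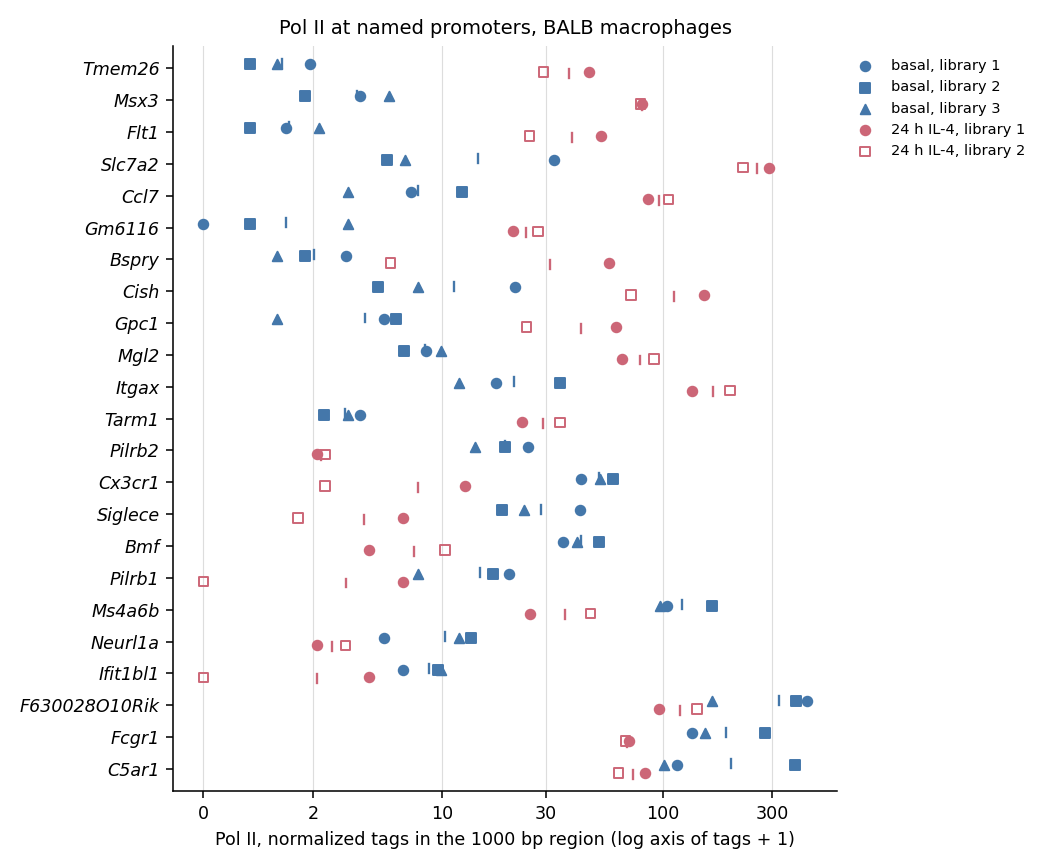
Pol II at the 23 named promoters in each library (normalized tags per 1000 bp region, log axis of tags plus 1; vertical ticks are group means). For the 12 upper genes, Tmem26 to Tarm1, the red 24 h libraries lie right of the blue basal ones, with Bspry held up by library 1, and for the 11 lower genes, Pilrb2 to C5ar1, they lie left of them.

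The 5 promoter regions called lower belonged to Cx3cr1 (2 regions), Siglece, Bmf and Pilrb2. Cx3cr1, the receptor of the chemokine fractalkine (chr9:120067828-120068828), had 43.4, 59.9 and 52.5 normalized tags at baseline and 12.8 and 2.38 at 24 hours, a log2 fold of -2.62 (limma -2.94 ± 0.65, adjusted p = 0.00263). An overlapping second region at its start gave -2.54 (limma adjusted p = 0.015). Siglece, an inhibitory sialic acid–binding lectin, had 42.8, 18.98 and 24.1 against 6.39 and 1.59 normalized tags (log2 fold -2.57, limma adjusted p = 0.0119). Both genes were low in both 24 h libraries. Bmf, a BH3-only member of the Bcl-2 family, had 35.8, 52.2 and 41.6 against 4.26 and 10.3 (log2 fold -2.41, limma adjusted p = 0.0225).

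Pilrb2, an activating paired immunoglobulin-like receptor, had 24.9, 19.6 and 14.2 normalized tags against 2.13 and 2.38 (log2 fold -2.66, limma adjusted p = 0.02). Its near-identical neighbour Pilrb1 had 20.4, 17.2 and 7.66 against 6.39 and 0, a ratio of basal to 24 h reads of 9.41 (95% interval 3.09 to 46.8, counting error only), and did not pass limma (adjusted p = 0.0523). Reads may be shared or lost between these copies, so both values are uncertain.

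The named promoters past the fold rule whose libraries did not overlap but which limma did not call had log2 folds from -1.94 to -1.42. Besides Pilrb1 they were Ms4a6b, the ubiquitin ligase gene Neurl1a, the interferon-induced Ifit1bl1, F630028O10Rik, the high-affinity immunoglobulin G receptor Fcgr1 and the complement C5a receptor C5ar1. Fcgr1 had 134, 279 and 153 normalized tags against 70.3 and 68.2 (limma adjusted p = 0.605), and C5ar1 had 115, 377 and 100.6 against 83.1 and 63.5 (adjusted p = 0.752). Lower libraries that did not overlap were found at 111 of all promoters (1.03%). Ifit1bl1 counted few reads, with a ratio of 7.27 (95% interval 1.87 to 62.3).

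The region with the largest rise lay in the first of 2 stretches of chromosome 14 that hold angiogenin and eosinophil-associated ribonuclease genes, secreted members of the ribonuclease A family. In the first (chr14:43924737-44078502; nearest genes Gm8113, Ang5, Ang6 and Ear2) 10 of 11 regions were called higher, and in the second (chr14:51185486-51254255; Ang2, Ear14 and Rnase2a) 10 of 10. Each stretch runs from its first to its last called region, so these shares are high in part by the way it was drawn. The median log2 folds of the called regions were 3.78 and 3.66. Genes of the same family can be close copies of each other, so tags may be shared or lost between them and the values per region are uncertain. How alike these genes are was not measured. The intergenic region near Ang5 (chr14:43966895-43967895) had 0.64, 0.59 and 1.09 normalized tags at baseline and 98.1 and 109 at 24 hours, the largest log2 fold of any called region, 5.88 (limma 5.89 ± 0.68, adjusted p = 2.0e-13). With so few basal reads the ratio of 24 h to basal reads was 147 (95% interval 49.5 to 719, counting error only). It holds 3 copies of the element printed above, and its H3K27ac went from 2.66 to 262 normalized tags (limma adjusted p = 1.34e-20).

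Near Ang2 (chr14:51199700-51200700) the values were 2.55, 2.97 and 5.47 against 128 and 114 normalized tags (log2 fold 4.71, limma adjusted p = 2.56e-09). Near Ang6 (chr14:43995924-43996924) they were 0, 0.59 and 1.09 against 23.5 and 41.3 (log2 fold 4.42, limma adjusted p = 5.62e-06; ratio 75.9, 95% interval 20.2 to 640). All 3 regions were open only at 24 hours and overlapped a STAT6 peak called only at 24 hours.

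Other distal rises lay near genes whose promoters also rose. An intergenic region 4219 bp from the Socs1 start (chr16:10780817-10781817) had 10.9, 17.2 and 10.9 normalized tags at baseline and 260 and 332 at 24 hours (log2 fold 4.41, limma 4.43 ± 0.65, adjusted p = 5.80e-08). Its 24 h level was as high as that of many promoters, while its H3K27ac was only 3.83 and 18.7 normalized tags. In intron 1 of Slc7a2 (chr8:40889840-40890840) Pol II went from 1.28, 1.78 and 1.09 to 55.4 and 63.5 normalized tags (log2 fold 4.66, limma adjusted p = 4.17e-08). The Msx3 region of the printed sequence (chr7:140051531-140052531) had 0, 1.78 and 4.38 against 36.2 and 71.4 normalized tags (log2 fold 4.17, limma adjusted p = 4.56e-07). In each case the 24 h libraries were far above the basal ones, whose values were a few reads at Slc7a2 and Msx3.

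Arg1 encodes arginase 1, the enzyme that splits arginine and a hallmark of alternative activation. An intergenic region near it (chr10:24931173-24932173) had 0, 2.37 and 0 normalized tags at baseline and 29.8 and 31.7 at 24 hours (log2 fold 4.15, limma adjusted p = 6.64e-06). In intron 5 of Il31ra, a cytokine receptor gene, the values were 0, 0.59 and 3.28 against 23.5 and 60.3 (log2 fold 4.23, limma adjusted p = 3.10e-06). Both 24 h libraries of each were apart from all basal ones.

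**Figure D3:**
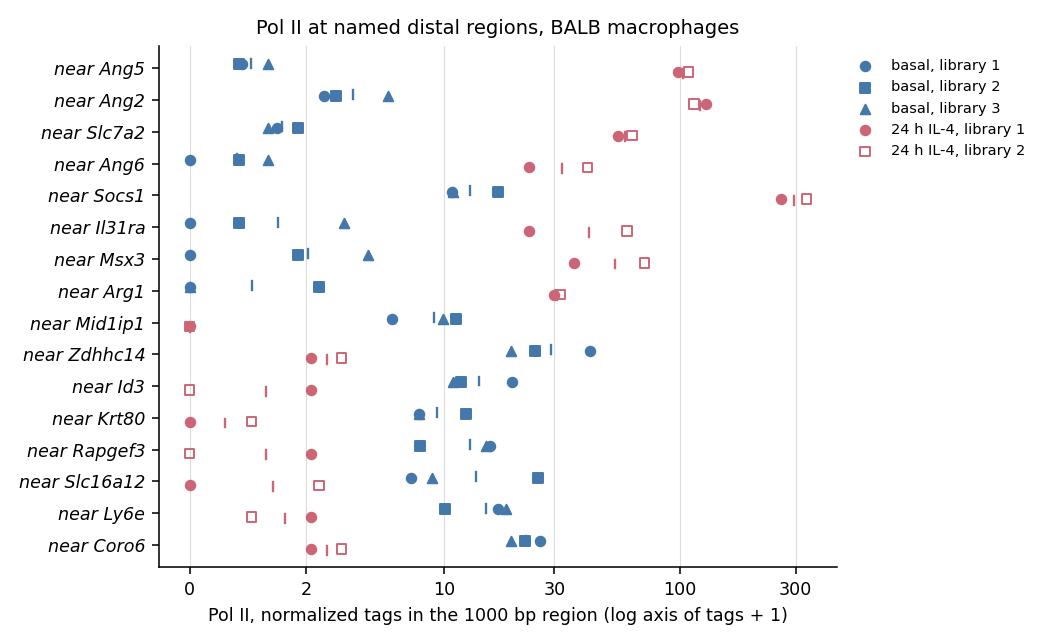
Pol II at the 16 named distal regions in each library, each labelled by its nearest gene (normalized tags per 1000 bp region, log axis of tags plus 1; vertical ticks are group means). The 8 upper regions go from below 20 to above 20 normalized tags, and the 8 lower ones fall to between 0 and 3.17 at 24 hours.

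Distal falls were fewer and rested on fewer reads. The largest lay 154425 bp from the start of Mid1ip1, with 5.75, 11.3 and 9.85 normalized tags at baseline and no read in either 24 h library (log2 values by limma, adjusted p = 0.00994). It would be 5.12-fold lower with the 24 h group set to 3 reads in all. That number is a limit chosen here for a count of 0, not a strict maximum. In intron 1 of Zdhhc14, a palmitoyltransferase gene, the values were 42.2, 24.9 and 19.7 against 2.13 and 3.17 (log2 fold -3.04, limma adjusted p = 0.00279). In intron 1 of Ssh2, far upstream of the nearest start, that of Coro6, they were 26.2, 22.5 and 19.7 against 2.13 and 3.17 (log2 fold -2.71, limma adjusted p = 0.0119). In both introns the 2 24 h libraries were low and close to each other.

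The other named falls had 1 to 3 reads at 24 hours. The ratio of basal to 24 h reads was 25.3 (95% interval 4.38 to 1020) near Id3, an inhibitor of basic helix-loop-helix factors, 21.6 (3.71 to 869) near Rapgef3, 16.6 (2.81 to 672) near Krt80, 12.7 (3.36 to 107) near Ly6e and 8.58 (2.80 to 42.7) in intron 1 of Slc16a12. All were called by limma, with adjusted p from 0.00631 to 0.0268, and the width of the intervals shows how little the 24 h depth fixed their size.

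The 318 distal regions with higher Pol II had 202 nearest genes, and 181 of the regions shared their nearest gene with another. Merged at gaps of up to 100 kb, the 358 higher regions of all kinds formed 190 clusters, of which 120 held a single region and 36 held 3 or more, 170 regions in all. Outside chromosome 14 the largest was the stretch from Auh to Nfil3 on chromosome 13, where 10 of 16 regions were called, the Nfil3 promoter among them. Its borders too were set by the calls. Since 52 of the 358 regions (14.5%) overlapped another, they are not all separate sites.

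A promoter region was in the table for 139 of the 202 nearest genes. Of these 47 (33.8%) were past the fold rule, against 5.79% of all promoters, and 16 were called by limma. Their median log2 fold was 1.08, against 0.55 for all promoters. The distal calls and these promoter values came from the same Pol II libraries, and some distal regions, as at Mgl2, overlapped the promoter region. The 2 readings are therefore not independent. Intronic regions made up 36.2% of the 318, against 54.5% of all distal regions, and 11 of 318 (3.46%) lay within 1000 bp of an annotated gene start, against 5.45%.

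Open chromatin, histone marks and factor peaks were measured apart from Pol II. Of the 318 distal regions, 185 (58.2%) were listed as open only at 24 hours, against 26.8% of all distal regions, and of the 27 promoters 12 (44.4%) were, against 8.41%. H3K27ac, a mark of active promoters and enhancers (2 libraries a group), was called higher by limma at 866 of all regions (1.6%). It was called at 196 of the 358 regions with higher Pol II (54.7%, exact binomial 95% interval 49.4% to 60.0%, counting error only). The share was 56.0% at the distal ones (1.98% of all distal regions) and 48.1% at the promoters (0.278% of all promoters). After median-ratio scaling of the mark it was 75.1% of the 358. It was then 76.4% at the distal ones (2.59% of all distal regions) and 63.0% at the promoters (0.444% of all promoters). One H3K27ac library stood apart, library 2 of the 24 h group, with 28.7% of its tags in the regions against 51.2% to 58.6% in the others.

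The median H3K27ac of the 318 distal regions went from 19 to 97.6 normalized tags. Slc7a2 was among the promoters called in both, with H3K27ac at 33.0 and 425 normalized tags (limma adjusted p = 1.53e-04), as were Tmem26 at 2.5 and 57.9 (3.74e-10) and Gm6116 at 1.40 and 70.3 (7.42e-15). Ccl7 was not (22.6 and 39.5, limma adjusted p = 0.716). Of the 5 promoter regions with lower Pol II, 4 were called lower in H3K27ac, and Cx3cr1 went from 159 to 13.1 normalized tags (limma adjusted p = 9.15e-06). Lower H3K27ac was called at 0.653% of all regions.

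On the deposited scale H3K4me2 and H3K4me3, marks of poised or active elements and of promoters, gave 1 call among the 318 distal regions and none at the promoters. Limma called 6 regions of the whole table higher in H3K4me2 (0.0111%) and 0 lower, and 0 in H3K4me3 in either direction, with 403 and 608 regions of H3K4me2 and 1638 and 1770 of H3K4me3 higher and lower at an unadjusted p below 0.05. At that p, H3K4me3 was higher at 82 of the 318 distal regions (against 1474 of all 40126) and at 16 of the 27 promoters (against 71 of all 10802). H3K4me2 was higher at 34 of the 318 (366 of all distal regions) and at 1 of the 27 (7 of all promoters). At the 27 promoters with higher Pol II the median H3K4me3 was 87.2 normalized tags at baseline and 156 at 24 hours, and it was above its basal mean at 81.5% of them, against 19.3% of all promoters. After median-ratio scaling of the marks, limma called H3K4me2 higher at 27 of the 318 distal regions (8.49%, against 0.376% of all). At promoters it was 2 of the 27 (7.41%, against 0.0278%). H3K4me3 still had 0 calls in both classes.

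STAT6 peaks called at 24 hours overlapped 210 of the 318 distal regions (66.0%), against 34.0% of all distal regions. At 177 of them (55.7%, against 15.8%) the peak was called only at 24 hours. Conversely, limma called Pol II higher at 2.79% of the distal regions with a STAT6 peak only at 24 hours and at 0.443% of those with none. Peaks of PPARγ, a nuclear receptor of lipid metabolism, overlapped 54.7% against 33.4%, and peaks of EGR2, a zinc finger factor, 56.6% against 35.8%. Peaks of C/EBPβ overlapped 59.1% against 44.9% and of PU.1, the factor that specifies macrophages, 86.2% against 81.5%. At the 27 promoters STAT6 peaks at 24 hours overlapped 10 (37.0%, against 11% of all promoters). The shares there were 33.3% against 20.1% for PPARγ and 37.0% against 26.8% for C/EBPβ, but 66.7% against 75.3% for EGR2 and 66.7% against 74.8% for PU.1.

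The STAT6-type element (TTC, any 4 bases, GAA) was found in 154 of the 318 distal regions (48.4%), against 25.2% of all distal regions and 23.5% of all regions of that length. At the promoters the shares were 22.2% of 27 and 17.7% of all. Among regions that limma called lower, it was in 7 of 19 distal regions (36.8%) and 3 of 5 promoter regions (60.0%). By the fold rule it was in 36.4% of 2378 higher and 22.5% of 454 lower distal regions. At promoters by that rule it was in 16.2% of 625 higher and 35.0% of 20 lower ones. The EGR-type letters GCGTGGGCG, searched on both strands, were in 1 of the 318 (0.314%), against 0.331% of all distal regions and 0.922% of all regions. A match is a description of the reference letters only.

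Genes of known function were grouped in lists, each gene represented by the region at its start. The lists were chosen with earlier results of these data known, so their medians and counts are descriptions only. All 10494 regions that represent a gene had a median log2 fold of 0.57, with 29 higher and 3 lower by limma and 638 (6.08%) higher and 27 (0.257%) lower by the fold rule. IL-4 induced and alternative activation genes had the highest median, 1.92 (1.66 after median-ratio scaling). Of 19 with a region, 7 were called higher by limma and 14 were past the fold rule, and none was lower. Tmem26, Slc7a2, Flt1 and Mgl2 led them, the Flt1 region of the list (chr5:147725292-147726292) rising from 2.02 ± 1.07 (SD, n = 3) to 44.5 ± 12.4 (SD, n = 2) normalized tags. Egr2 had 112, 54.6 and 78.8 normalized tags at baseline and 422 and 327 at 24 hours (limma adjusted p = 0.0785), and the mannose receptor gene Mrc1 96.5, 220 and 62.4 against 326 and 453 (adjusted p = 0.275). For both genes the groups were apart, yet neither passed limma. On the recovered reads Egr2 was called higher by edgeR with TMM and by DESeq2, but not by edgeR with library totals, and Mrc1 by none of them.

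Genes of the IL-4 receptor and Janus kinase pathway itself had a median of 0.53, with Cish and Socs2 called among 18, while edgeR with TMM and DESeq2 called Cish and Socs1. Stat6 had means of 260 ± 84.6 (SD, n = 3) and 249 ± 45.8 (SD, n = 2) normalized tags, and the receptor chain gene Il4ra 90.6 ± 35.1 and 97.9 ± 75.6. Chemokine receptor and migration genes (12) held 1 rise, Itgax, and 1 fall, Cx3cr1. Lysosome genes (21) held the rise of Atp6v0d2 and had a median of 0.38.

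In the other 8 lists limma called 0 members, with 7 higher and 3 lower at an unadjusted p below 0.05. On the recovered reads, edgeR called 1 of them higher with library totals (Scd1) and 0 with TMM, and DESeq2 called Cd14, the lipopolysaccharide co-receptor gene, and Fcgr1 lower. Inflammatory and NF-kB genes (26) had a median of 0.08 and interferon-stimulated genes (25) one of 0.09, both below that of all genes. Ccl2, a chemokine gene next to Ccl7, had 53.7, 125 and 18.6 normalized tags against 185 and 241 (limma adjusted p = 0.137), and Ptgs2, the inducible cyclooxygenase, 5.75, 9.49 and 7.66 against 38.4 and 7.14 (adjusted p = 0.798). The Ptgs2 value came from 24 h library 1 alone, and without that library its log2 fold was -0.06. The highest interferon-stimulated genes were Irf9 (365 ± 121 (SD, n = 3) and 267 ± 23.7 (SD, n = 2) normalized tags) and Usp18 (202 ± 23.3 and 252 ± 133).

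Macrophage identity genes (18) had a median of -0.13, with Fcgr1 past the fold rule. Lipid and nuclear receptor genes (24) had 0.39, with the desaturase Scd1 at 8.50 ± 3.51 (SD, n = 3) and 44.0 ± 16.2 (SD, n = 2) normalized tags (limma adjusted p = 0.0588). Glycolysis and citric acid cycle genes (27) had 0.52, cell cycle genes (24) 0.78, antigen presentation genes (14) 0.90 and ribosomal protein and housekeeping genes (22) 0.32. The members past the higher side of the fold rule in these lists were Scd1, Mdh1, Ccne1 and Mcm3, H2-DMb1 and H2-Ab1. For H2-Ab1 the mean was 60.4 ± 24.3 at baseline and 160 ± 126 at 24 hours, so the spread of the 24 h libraries was as wide as the difference.

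**Figure D4:**
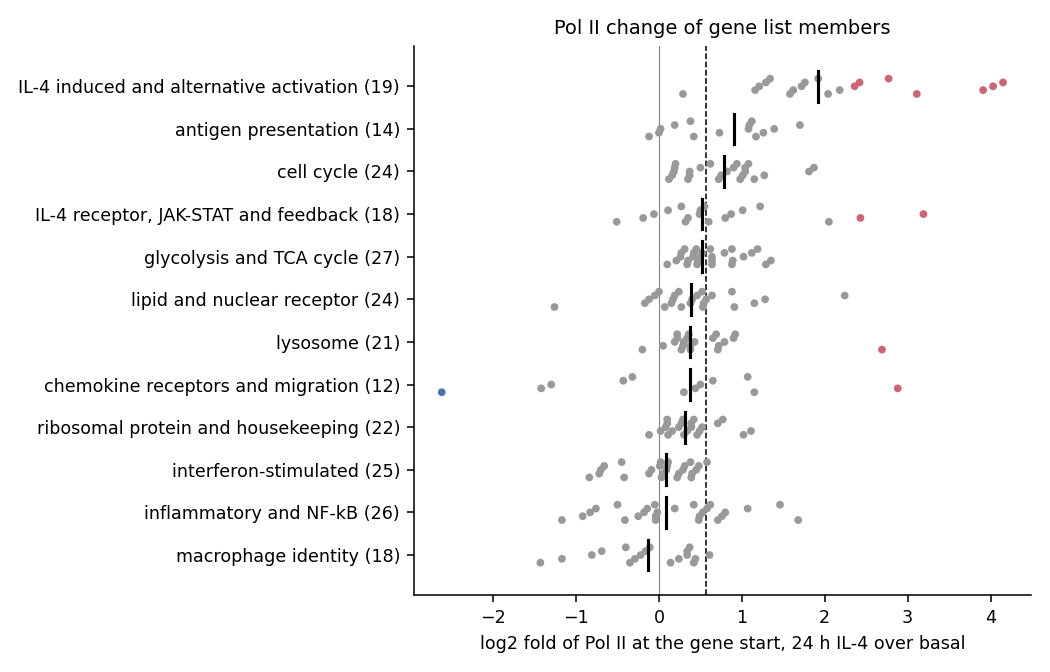
Log2 fold of Pol II (24 h IL-4 over basal) at the start of each gene in 12 lists, with the number of genes that had a region in brackets. Red points were called higher and blue lower by limma, black bars are list medians (1.92 for IL-4 induced genes, -0.13 for macrophage identity genes) and the dashed line is the median of all gene regions (0.57).

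The 24 h libraries differed from each other at promoters. At 564 of 10465 promoters with at least 8 normalized tags (5.39%) library 1 was at least 5-fold above library 2, and at 2 the reverse held. In those 564 the median was 17.9 normalized tags at baseline, 81.0 in library 1 and 10.3 in library 2, and 251 of them were past the fold rule. Of the 625 promoters past the fold rule, 248 (39.7%) had both 24 h libraries above every basal one, against 1908 of 2378 distal regions (80.2%), patterns found at 8.75% of all promoters and 16.1% of all distal regions. Without 24 h library 1 the fold rule gave 118 higher promoters, and without library 2 it gave 2770. Limma called 10 and 111 promoters higher in these cases. At distal regions the fold rule gave 2132 and 4281.

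The same regions were read in Pol II libraries of 4 other strains, SPRET (SPRET/EiJ), PWK (PWK/PhJ), C57 (C57BL/6J) and NOD (NOD/ShiLtJ), which share no library with BALB. Their tables were made separately, regions were matched where centres lay within 500 bp, and no test was run across them. Of the 318 distal regions, 259 were matched in C57, and 78.0% of them were at least 2.5-fold higher at 24 hours there, against 2.73% of all matched distal regions. In NOD it was 88.5% of 279 (against 4.4%), in PWK 78.0% of 241 (3.73%) and in SPRET 59.3% of 194 (1.95%). The shares at promoters were 86.4% of 22 in C57, 80.0% of 25 in NOD, 76.2% of 21 in PWK and 55.0% of 20 in SPRET. Of the regions limma called lower in BALB, 3 to 5 promoters and 11 to 18 distal regions were matched in each strain and 0 were above their basal mean, against 21.1% to 60.4% of all promoters and 40.4% to 48.1% of all distal regions. Among distal regions lower by the fold rule, 8.81% (NOD) to 12.9% (SPRET) were above it.

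Of the 625 promoters past the fold rule, 8.12% of those matched were at least 2.5-fold higher in C57 (against 0.551% of all matched promoters), 10.8% in NOD (0.88%), 8.99% in PWK (0.754%) and 5.66% in SPRET (0.451%). Among single regions, the Msx3 distal region rose from means of 2.64 to 51.0 normalized tags in C57 and from 1.37 to 73.3 in NOD, but was at 1.18 and 2.32 in PWK. The Socs1 distal region had log2 folds of 5.47, 4.18, 4.95 and 5.53 in C57, NOD, PWK and SPRET. Ccl7 started higher elsewhere, at 478 normalized tags at baseline and 680 at 24 hours in PWK and 193 and 730 in NOD. Cx3cr1 was lower in all 4 strains, with log2 folds from -4.59 in PWK to -2.77 in NOD.

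**Figure D5:**
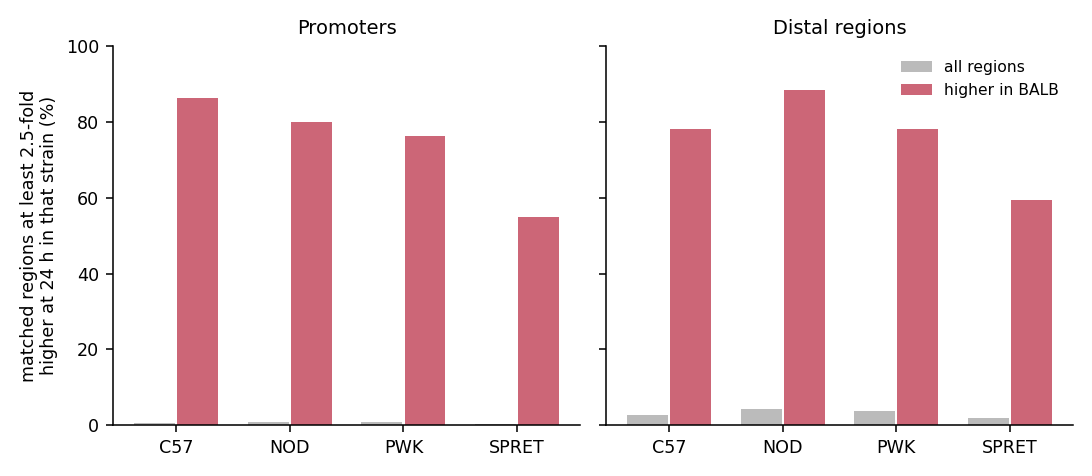
Percentage of matched regions at least 2.5-fold higher in Pol II at 24 hours of IL-4 in each of 4 other strains, for all regions (grey) and for those called higher in BALB (red), at promoters and distal regions. The red bars run from 55.0% to 88.5%, the grey ones from 0.451% to 4.4%, and SPRET has the lowest red bar in both panels.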

How the data were processed

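Pol II ChIP-seq reads of BALB BMDMs were aligned by the authors with Bowtie2 to a genome that carries the known variants of the strain, and positions were then moved to mm10, so reads over known variants are not lost but unknown ones may be. The deposited signal is HOMER tags per 1000 bp region, scaled to 10000000 tags a library; of 2357876 values, 100.0% came out as whole reads within 0.1 read. Regions are sites that ATAC-seq found open. Promoter means HOMER's promoter-TSS class, and distal means its intron and intergenic classes. The authors' deposited peak lists of BALB gave positions and scores, of which only the positions were used.

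The 3 basal and 2 24 h libraries were compared with limma 3.58.1 (R 4.3.3; lmFit, eBayes with trend, two-sided) on log2(normalized tags + 1) over all 54022 regions, without a filter, at a Benjamini-Hochberg adjusted p below 0.05. Fold changes are ratios of group means plus 1 and understate the change of low regions. edgeR 4.0.16 and DESeq2 1.42.0 ran on the recovered reads as alternatives. Histone marks were fitted the same way, each on its own. Named regions were the 12 promoters and 8 distal regions with the largest rise and fall among those past limma and the fold rule without overlap, 1 region per gene or nearest gene, filled from the fold rule where fewer passed, plus up to 4 members of each list; 1 of these promoters is not reported here. The members and lists were chosen with earlier results of these data known. Tables were handled with pandas 2.3.3 in Python 3.11.15, and the fits were tested on simulated data. The depth of 4691644 to 16860473 tags a library limits regions of few reads, and intervals and floors cover counting error only. Alternatives were pseudocounts, filters, scalings, tools, a fold threshold of 2, a replicate block and leaving out libraries.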

Additional observations from a re-analysis of the deposited data

How the results depend on the processing

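Regions higher and lower in Pol II by limma (358 and 24) numbered 43 and 4 after median-ratio scaling, 225 and 18 with edgeR and TMM, 523 and 11 with edgeR and library totals, 258 and 57 with DESeq2, 427 and 13 with a pseudocount of 5 and 276 and 13 with at least 16 normalized tags. At promoters (27 and 5) they were 8 and 2 after median-ratio scaling, 70 and 5 with edgeR and library totals, and 31 and 13 with DESeq2. At distal regions (318 and 19) they were 30 and 2 after median-ratio scaling, 374 and 8 with a pseudocount of 5, 240 and 8 with 16 tags, 425 and 6 with edgeR and library totals, 195 and 11 with TMM, and 213 and 36 with DESeq2. No source used here tells whether same-numbered libraries share an animal or day. The correlation of deviations was 0.36 for number 1 and 0.443 for number 2 and, mirrored since the 24 h group has 2 libraries, -0.36 and -0.443 across numbers, and 2 pairs do not settle the pairing. With the replicate block limma called 0 in each class, with 4654 higher and 2183 lower at an unadjusted p below 0.05. Leaving out 1 library gave 0 to 354 higher and 0 to 90 lower regions in all, 0 to 111 and 0 to 7 at promoters, and 0 to 208 and 0 to 87 at distal regions. The lowest, 0, was without basal replicate 3. A lone 24 h library was assumed to vary like the basal ones. In 2 alternatives chosen after seeing the data, basal 3 and 24 h 1 left out together or median-ratio scaling without basal 3, limma called 0 in each class, with 1808 and 1969 higher at an unadjusted p below 0.05.

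By the fold rule (3194 and 502), counts were 1800 and 155 with a pseudocount of 5, 3751 and 1267 without the filter, 2481 and 294 with 16 tags, 1597 and 1086 after median-ratio scaling, 6185 and 1118 at 2-fold, 1889 and 2019 with both libraries out and 1936 and 1061 with median-ratio scaling without basal 3. The promoters (625 and 20) gave 402 and 12, 657 and 32, 551 and 15, 225 and 47, 1555 and 52, 88 and 282, and 285 and 52 in that order. The distal regions (2378 and 454) gave 1284 and 132, 2881 and 1185, 1779 and 260, 1284 and 969, 4257 and 996, 1723 and 1620, and 1540 and 949. Leaving out 1 library gave 2348 to 7504 higher and 511 to 1367 lower, at promoters 118 to 2770 and 23 to 162, at distal regions 1956 to 4281 and 450 to 1117. The share of regions with higher Pol II also called in H3K27ac, 54.7%, was 75.1% after median-ratio scaling and 25.1% by the fold rule of both. After that scaling the mark was called higher at 2.59% of all distal regions and 0.444% of all promoters. By the fold rule these shares were 3.49% and 0.546%. Of 32 named regions that limma called, 26 kept the call with TMM, 22 with DESeq2 and 10 after median-ratio scaling. Only Ptgs2, not called, reversed among the named regions, to -0.05 with both libraries out, and leaving out 1 library gave -0.06 to 2.21. The causes were not tested.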

Other observations

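Outside the comparison of the groups, the promoters with the most Pol II at baseline were those of Lyz2, the lysozyme gene of myeloid cells, with 2080 ± 1070 (SD, n = 3) normalized tags, the histone gene H4f16 with 1920 ± 948 and the noncoding RNA gene Neat1 with 1820 ± 864. Their log2 folds at 24 hours were -0.81, -0.12 and 0.08.

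Transcript ends and exons held some of the largest rises, named here after their values were seen. The region at the end of Rmi2 (chr16:10843700-10844700), the gene next to Socs1, went from 3.83, 3.56 and 1.09 to 104 and 152 normalized tags, a log2 fold of 5.08 (limma adjusted p = 7.78e-11). One near Tnp2, in the same neighbourhood (chr16:10786724-10787724), had means of 0.943 and 50.8 (log2 fold 4.74, limma adjusted p = 5.21e-08). Downstream of the Cish promoter a region at chr9:107302824-107303824 had means of 1.21 and 58.3 (log2 fold 4.74, limma adjusted p = 9.20e-09), larger than the fold of the promoter itself (3.19). At Ccl7 the same held, with means of 5.00 and 135 at chr11:82047685-82048685 (log2 fold 4.50) beside a promoter fold of 3.49. Whether these folds differ from those of the promoters was not tested.

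In intron 14 of Fggy, upstream of the nearest start, that of Hook1, 5 regions were called higher, with log2 folds from 2.89 to 4.10. The one at chr4:95915891-95916891 had 2.55, 1.78 and 3.28 normalized tags at baseline and 36.2 and 83.3 at 24 hours.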
